A study of Mus musculus with 24 samples.

Results

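The 10 genes described here encode cyclins, cyclin-dependent kinases and kinase inhibitors that act in the G1 phase of the cell cycle. They were taken by gene symbol from arrays that measured 17097 named genes, and all 10 were measured. They are the inhibitors Cdkn1a, Cdkn1b, Cdkn2a and Cdkn2c, the D-type cyclins Ccnd1, Ccnd2 and Ccnd3, the kinases Cdk4 and Cdk6, and the E-type cyclin Ccne2. Together they have 24 of the 45141 probe sets of the array, and each gene is described by its probe set of the largest spread unless another is named.

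D-type cyclins bind Cdk4 or Cdk6, and the complexes phosphorylate the retinoblastoma protein, which releases E2F factors and opens the way to DNA replication. E-type cyclins act after them with Cdk2. The inhibitors p16 (from Cdkn2a) and p18 (Cdkn2c) bind Cdk4 and Cdk6, while p21 (Cdkn1a) and p27 (Cdkn1b) bind complexes of cyclins with kinases. In precursor B cells Ccnd2 and Ccnd3 are the D cyclins best known for driving division downstream of the IL-7 receptor and the pre-B-cell receptor, and loss of Cdkn2a is a common lesion of acute lymphoblastic leukaemia.

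The samples were 8 arrays of the mouse precursor B-cell leukaemia line BKO408 and 16 arrays of primary mouse leukaemias. BKO408 is labelled as coming from a Blnk knockout mouse, so by their labels both cell groups lack the pre-B-cell receptor adaptor Blnk. The line was grown with 5 ng/ml IL-7. It was measured after transduction with a retrovirus carrying LAP, an activating product of Cebpb, the gene of the leucine zipper factor C/EBPβ (LAP cells, n = 4), and without it (BKO408 cells, n = 4). The tumours were B-ALL of mice with a Cebpb LAP transgene (LAP B-ALL, n = 4), preB-ALL of Blnk knockout mice with that transgene (LAP/Blnk tumours, n = 3), preB-ALL of mice labelled with the transgene alone (LAP preB-ALL, n = 4) and preB-ALL of homozygous Blnk knockout mice (Blnk tumours, n = 5).

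BKO408 is a single line, and the labels do not say whether the BKO408 cells received an empty virus. Nor do they give the promoter of the transgene, the tissue of the tumours, the share of leukaemic cells in it, the age or strain of the mice, or whether replicates were separate cultures or animals. The p-values therefore measure only the spread between these samples. All values are log ratios, taken as log2. Cell-line values are relative to the median of their 8 arrays, and tumour values to the median of all 16 tumours. They hold no level of expression, so genes cannot be ranked against each other, cells cannot be set against tumours, and the presence of a cell type cannot be read from its markers. In tumour tissue, fewer cells of a type and less RNA per cell cannot be told apart.

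The tumour LAP B-ALL 4 stood apart. It correlated with the other LAP B-ALL at r between -0.08 and -0.04 over all probe sets, where the other 3 reached 0.84 among themselves, and its Cebpb value of -3.11 lay within the Blnk tumours (-4.50 to -1.94). The other 10 tumours labelled with LAP had Cebpb between -1.41 and 0.90. This holds for the Cebpb probe set of the largest spread; on the other 2 the Blnk tumours (-1.38 to 1.38 and -0.32 to 0.15) overlapped with the LAP groups. LAP B-ALL 4 was kept in the fits, and differences of the 10 genes, calls of other genes and correlations that involve it are also given without it where they are described. LAP cells and BKO408 cells differed in Cebpb by 0.15 ± 0.06 (SE; adjusted p = 0.0855), and which part of Cebpb the probes cover was not known. The single Blnk probe set did not follow the knockout labels. It was between -0.53 and 0.93 in LAP B-ALL, 0.42 and 1.23 in LAP/Blnk tumours, -0.06 and 1.45 in LAP preB-ALL, and -0.68 and 0.94 in Blnk tumours, so the groups overlapped. It was 0.10 lower in LAP than in BKO408 cells (adjusted p = 0.0201). Whether its probes lie in the deleted part of Blnk was not known, so it does not check the label. B-lineage markers, as a median over 9 genes relative to all tumours, were at -1.87, -1.85, -2.97 and 0.88 in LAP B-ALL 1 to 4, between 0.35 and 0.58 in LAP/Blnk tumours, at -0.27, -1.40, -0.29 and -3.81 in LAP preB-ALL 1 to 4, and between -0.15 and 0.59 in Blnk tumours. LAP B-ALL 1 to 3 and LAP preB-ALL 4 were thus the lowest 4 tumours in B-lineage markers, and the same 4 tumours had erythroid marker medians of 4.03 to 4.89, against -0.61 to 0.81 in the other 12.

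The comparison of LAP cells with BKO408 cells asked what LAP changes in a leukaemia labelled as lacking Blnk. Of the 10 genes 8 passed limma's test at an adjusted p of 0.05, against 22.3% of all genes tested. Cdkn1a, Cdkn2a, Ccnd1 and Cdk6 rose, 4 genes where 10.5% of all genes were called higher. Cdkn2c, Ccne2, Ccnd3 and Cdk4 fell, 4 genes where 11.8% were called lower. The same 8 genes were those in which LAP and BKO408 cells did not overlap, which held for 26.8% of all genes. The size of the difference had a median of 0.19 over the 10 genes and 0.06 over all genes. Most of these changes were thus small on the log2 scale, though larger than those of genes at large. The 10 genes were chosen with earlier results of these data known.

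Cdkn1a, which encodes p21, the inhibitor induced by p53 and by differentiation signals, changed most. It was at 0.64, 0.60, 0.74 and 0.59 in LAP cells 1 to 4 and at -0.59, -0.79, -1.01 and -0.78 in BKO408 cells 1 to 4. The lowest LAP array lay more than 1 log2 unit above the highest BKO408 array. The difference was 1.44 ± 0.08 (SE; 2.71-fold; adjusted p = 1.85e-06), and it was between 1.37 and 1.51 when any single array was left out. The second Cdkn1a probe set rose by 1.19 ± 0.05 (adjusted p = 5.01e-07).

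Cdkn2c, which encodes p18, was the inhibitor that fell. It was at -0.19, -0.20, -0.24 and -0.18 in LAP cells 1 to 4 and at 0.20, 0.23, 0.18 and 0.25 in BKO408 cells 1 to 4. The groups lay on either side of 0 with little spread, and the difference was -0.42 ± 0.03 (1.34-fold lower; adjusted p = 7.2e-06). Cdkn2a, whose reading frames encode p16 and p19Arf, was at 0.21, 0.15, 0.19 and 0.15 in LAP cells and at -0.24, -0.20, -0.21 and -0.15 in BKO408 cells. It was higher in every LAP array, by 0.37 ± 0.03 (1.30-fold; adjusted p = 2.08e-05). Its single probe set does not tell the transcripts of the locus apart here. Cdkn1b, which encodes p27, was at 0.07, 0.09, 0.0034 and -0.0038 in LAP cells 1 to 4 and at -0.56, -0.0034, 0.09 and -0.09 in BKO408 cells 1 to 4. The groups overlapped, with BKO408 1 far below the other 3, and the difference was 0.18 (95% interval -0.09 to 0.45; adjusted p = 0.346). On the second Cdkn1b probe set the sign was the opposite, with means of -0.0074 in LAP cells and 0.03 in BKO408 cells.

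The proximal promoters were read because LAP is a DNA-binding factor and these genes moved in opposite directions. RefSeq starts on GRCm38.p6 were found for 7 of the 10 genes, with 11 starts in all, each as a window around the start. Cdkn1a and Cdkn2c are shown as the inhibitors that changed most in each direction, and Cdk4 because it held the most E-boxes. Capitals mark every match, on either strand, to the C/EBP word TTGCNNAA, the E-box CACGTG, the Sp1 word GGGCGG, or the E2F words TTTCCCGC, TTTGGCGC and TTTCGCGC, and adjoining matches run together. The Cdkn1a window is chr17:29093519-29093818 (+ strand), the Cdkn2c window chr4:109665323-109665622 (- strand) and the Cdk4 window chr10:127063285-127063584 (+ strand).
Cdkn1a: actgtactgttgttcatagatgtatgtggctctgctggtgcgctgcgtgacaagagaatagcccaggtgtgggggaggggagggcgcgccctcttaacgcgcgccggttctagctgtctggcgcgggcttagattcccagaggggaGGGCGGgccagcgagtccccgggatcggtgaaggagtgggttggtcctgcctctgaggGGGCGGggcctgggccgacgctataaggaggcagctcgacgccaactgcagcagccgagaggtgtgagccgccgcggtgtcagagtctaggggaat
Cdkn2c: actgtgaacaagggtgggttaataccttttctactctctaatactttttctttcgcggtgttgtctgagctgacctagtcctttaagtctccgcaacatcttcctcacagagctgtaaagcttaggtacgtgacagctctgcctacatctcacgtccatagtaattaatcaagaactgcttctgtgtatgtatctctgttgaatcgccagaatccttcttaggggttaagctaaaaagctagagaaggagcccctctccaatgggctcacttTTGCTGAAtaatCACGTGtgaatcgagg
Cdk4: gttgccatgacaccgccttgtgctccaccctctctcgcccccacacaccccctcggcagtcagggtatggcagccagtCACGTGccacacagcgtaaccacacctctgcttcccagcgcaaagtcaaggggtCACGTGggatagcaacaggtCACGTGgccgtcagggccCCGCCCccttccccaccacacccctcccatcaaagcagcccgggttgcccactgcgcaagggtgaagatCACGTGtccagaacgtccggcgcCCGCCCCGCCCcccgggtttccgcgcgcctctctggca

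The C/EBP word was found at 1 of the 11 starts, the downstream start of Cdkn2c shown above, where it begins 22 bases after the start. It occurs in 10.8% of all 32851 promoter windows. Neither start of Cdkn1a held it within these windows, and the Cdkn1a window shown holds 2 Sp1 words. The E-box was found at 3 of the 11 starts (7.15% of all windows), in Cdkn2c, Cdk6 and Cdk4, and the Cdk4 window holds 4. The Sp1 word was at 8 of the 11 (35.7%), and an E2F word at 1 (1.84%), the upstream start of Cdkn2a. These matches describe letters in short windows and show no binding.

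The D cyclins, the regulatory subunits of Cdk4 and Cdk6, changed by small amounts in the cells. Ccnd3 was at -0.10, -0.13, -0.05 and -0.13 in LAP cells 1 to 4 and at 0.16, 0.05, 0.07 and 0.08 in BKO408 cells. The groups did not overlap (difference -0.19 ± 0.03; 1.14-fold lower; adjusted p = 0.00204), but the second Ccnd3 probe set rose by 0.44 ± 0.05 (adjusted p = 0.000415), so the direction of Ccnd3 in the cells is not settled. Ccnd1 was at 0.03, 0.02, 0.06 and 0.01 in LAP cells and at -0.13, -0.01, -0.05 and -0.09 in BKO408 cells, a difference of 0.10 ± 0.03 (adjusted p = 0.0447). On another Ccnd1 probe set the groups overlapped (-0.22 to 0.23 in LAP cells, -0.66 to 0.10 in BKO408 cells). On the remaining probe set they did not (0.02 to 0.07 and -0.08 to -0.02). Ccnd2 was at 0.07, 0.34, 0.05 and -0.09 in LAP cells and at -0.29, -0.02, 0.01 and -0.01 in BKO408 cells, and the groups overlapped (0.17, 95% interval -0.04 to 0.38; adjusted p = 0.254). All 6 Ccnd2 probe sets had a positive difference, between 0.10 and 0.35, and 3 of them passed.

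The kinases, which phosphorylate the retinoblastoma protein, moved in opposite directions by small amounts. Cdk6 was at 0.04, 0.04, 0.04 and 0.03 in LAP cells and at -0.04, -0.10, -0.03 and -0.08 in BKO408 cells (0.10 ± 0.03; adjusted p = 0.0212). Cdk4 was at -0.02, -0.09, -0.05 and -0.02 in LAP cells and at 0.08, 0.03, 0.02 and 0.14 in BKO408 cells (-0.11 ± 0.03; adjusted p = 0.0411). Neither pair of groups overlapped, and all 3 probe sets of each gene passed in the same direction, those of Cdk6 at 0.10 to 0.32 and those of Cdk4 at -0.18 to -0.11. Leaving out single arrays ended the calls of Ccnd1 in 7 of 8 cases, of Cdk4 in 6 and of Cdk6 in 5, with adjusted p of up to 0.117, 0.109 and 0.0581. The Ccnd1 call was kept without BKO408 2 (0.12), that of Cdk4 without BKO408 2 or 3 (-0.12 and -0.13), and that of Cdk6 without BKO408 1, BKO408 3 or LAP 4 (0.11, 0.11 and 0.10).

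Ccne2, the cyclin that partners Cdk2 at the entry to S phase, was at -0.12, -0.18, -0.17 and -0.21 in LAP cells and at 0.12, 0.21, 0.23 and 0.15 in BKO408 cells. Every LAP array was below every BKO408 array (difference -0.35 ± 0.03; 1.27-fold lower; adjusted p = 9.35e-05).

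**Figure D1:**
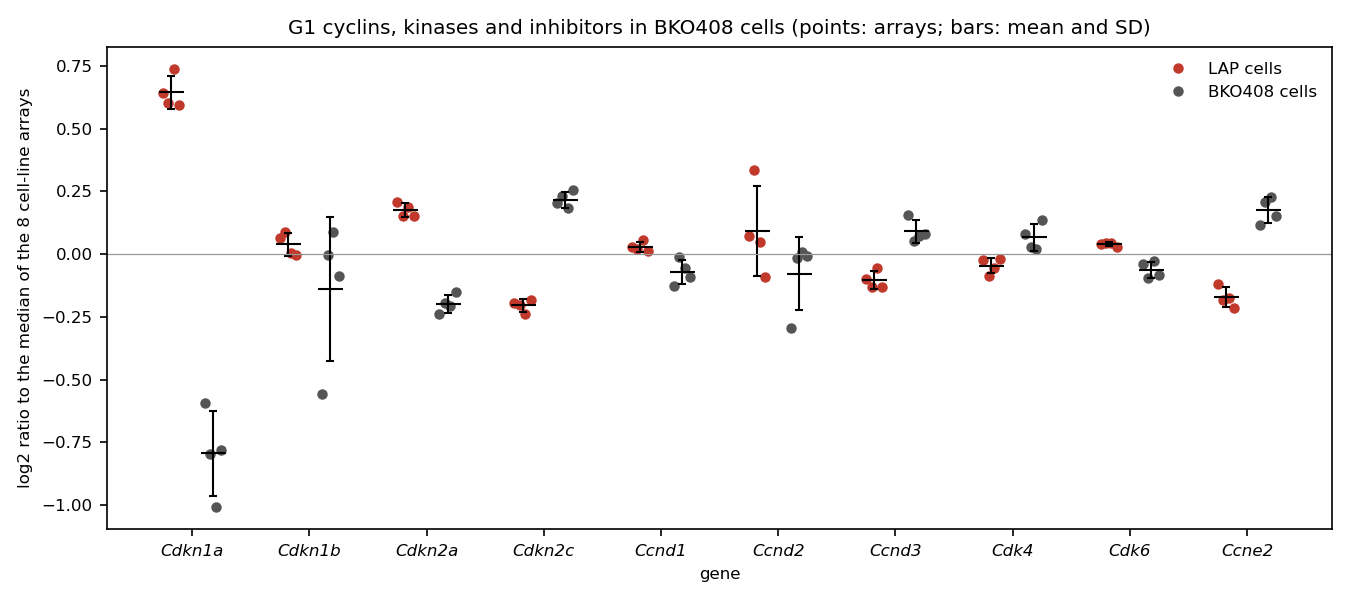
Log2 ratio of each of the 10 genes, relative to the median over all 8 arrays of the line, with LAP cells in red at the left of each pair and BKO408 cells in grey at the right. Points are arrays and bars the mean and SD of 4 arrays; Cdkn1a separates by 1.44, while Cdkn1b and Ccnd2 overlap.

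Other genes of the pathway were taken from lists of known members. Of 28 further G1 regulators 5 rose and 8 fell with LAP, and their median difference (-0.01) equalled that of all genes (-0.01). The E cyclin Ccne1 fell by 0.36, its kinase Cdk2 by 0.23, and Skp2, which marks p27 for destruction, by 0.26. Of the E2F family and its partners, E2f7 fell by 0.36, E2f8 by 0.27, Tfdp2 by 0.25, E2f2 by 0.13 and E2f6 by 0.11. The retinoblastoma relative Rbl1 rose by 0.28, the phosphatase gene Cdkn3 by 0.28, the inhibitor gene Cdkn2d by 0.11, and Cdk7 and its cyclin Ccnh by 0.30 and 0.11.

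Genes of DNA replication with E2F sites lay lower with LAP. Of 23 measured, 15 fell and 0 rose, and their median difference was -0.13. The largest falls were in Uhrf1, a factor of DNA methylation upkeep (-0.31), Mcm7, a subunit of the replicative helicase (-0.24), and Tk1, thymidine kinase (-0.24). Their list median was -0.07 to -0.06 in LAP cells and 0.05 to 0.08 in BKO408 cells, so the arrays did not overlap. Mitosis genes moved both ways, with 5 of 19 higher and 6 lower, among them Top2a, a topoisomerase (-0.37), Ttk, a spindle checkpoint kinase (-0.24), and Aurka, a spindle kinase (0.23).

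The rise of Cdkn1a stood beside a mixed set of other p53 targets. Of 17 such genes without Cdkn1a, 4 rose and 3 fell, with a median of 0.01. The antiproliferative gene Btg2 fell by 0.69 and Trp53inp1 by 0.57, while Aen, an apoptosis nuclease, rose by 0.41. Among 29 genes known to act on D cyclins or inhibitor genes 7 rose and 7 fell, led by the transcription factor genes Irf4 (-1.41), Gfi1 (1.27) and Klf6 (1.04).

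Of the marker lists of other cells, the 9 monocyte and macrophage genes had 3 higher and 0 lower, the chemokine receptor gene Ccr2 (2.25), the lysozyme gene Lyz2 (1.53) and the Fc receptor gene Fcgr1 (0.41). The 10 granulocyte genes had 2 higher, the protease genes Mmp8 (0.45) and Prtn3 (0.44), and 1 lower, Elane (-0.12). Their list medians lay between 0.01 and 0.08 (monocytes) and -0.09 and 0.05 (granulocytes) in LAP cells, against -0.08 to 0.0021 and -0.01 to -0.0040 in BKO408 cells. Of 9 B-lineage genes 1 rose and 4 fell, and those with the largest difference were Dntt, the template-independent polymerase of antigen receptor rearrangement (-1.91), and the recombinase genes Rag1 (-1.32) and Rag2 (-1.19). Of 7 T-cell genes Cd28, a costimulatory receptor, rose by 0.73 and Cd8b1 fell by 0.12. Of 6 NK-cell genes Klrb1c fell by 0.40 and Klrd1 by 0.31, of 6 erythroid genes Car2 fell by 0.23, and of 8 stromal and endothelial genes Pecam1 fell by 0.55. Counting all measured genes, positive and negative differences numbered 5 and 4 for monocytes, 5 and 5 for granulocytes and 2 and 7 for the B lineage. They numbered 3 and 4 for T cells, 3 and 3 for NK cells, 3 and 3 for erythroid cells, and 1 and 7 for stroma and endothelium. The part of these genes in the changes of the 10 genes was not tested.

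**Figure D2:**
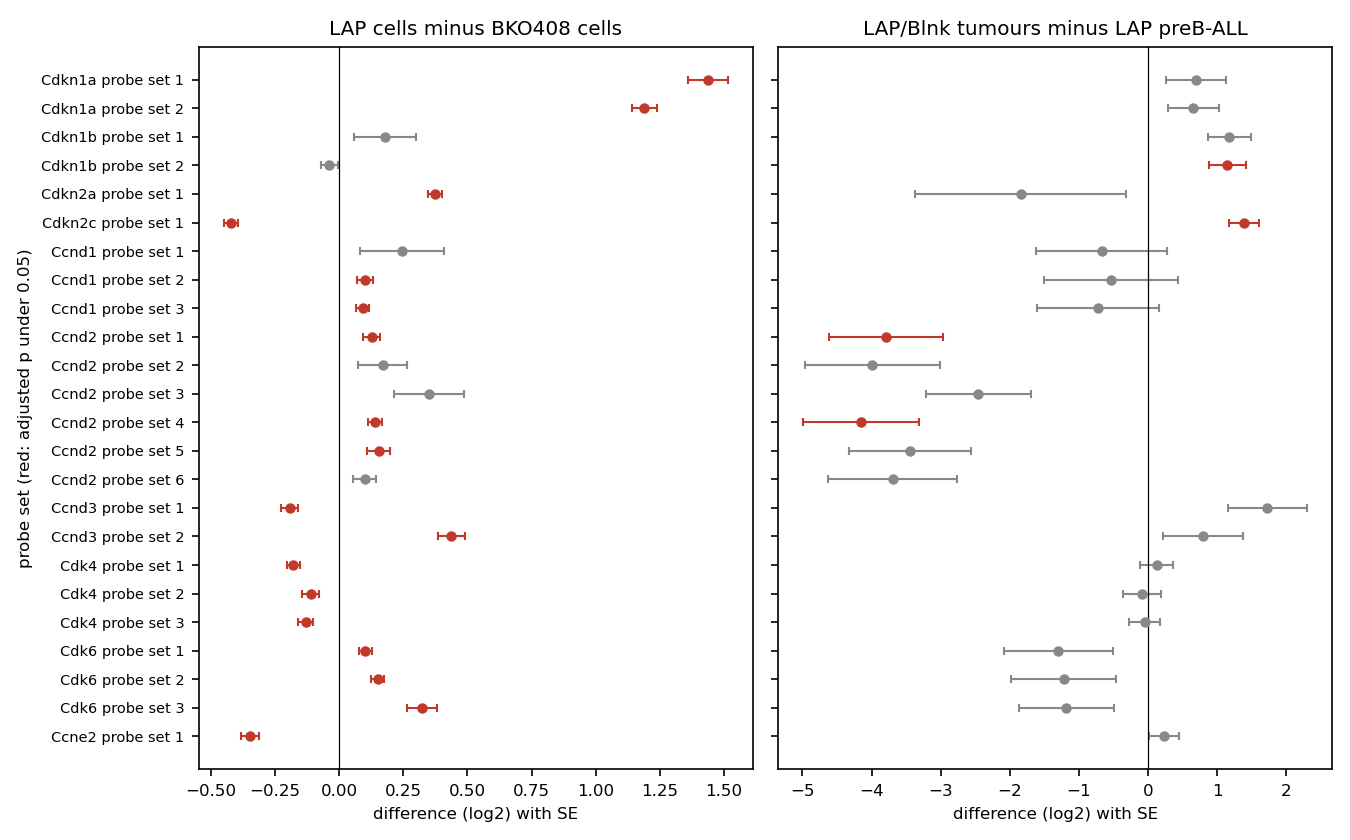
Difference of each of the 24 probe sets, with its SE, between LAP and BKO408 cells (left) and between LAP/Blnk tumours and LAP preB-ALL (right), numbered in the order of the array. The 2 Ccnd3 probe sets oppose each other in the cells (-0.19 and 0.44), while all 6 Ccnd2 probe sets are negative in the tumours.

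Among tumours 9 of the 10 genes had a larger SD than in the cells, and Cdkn1a had 0.78 in both. Genes at large also spread more in tumours, with a median SD over all genes of 0.278 in tumours and 0.0758 in cells. The SD over the 16 tumours was 2.08 for Cdkn2a and 1.93 for Ccnd2, above those of 99.3% and 99.1% of all genes, and 0.29 for Ccne2, near the middle of all genes (51.7%). Across the 4 tumour groups 1 of the 10 genes differed by the F test, Cdkn2c (adjusted p = 0.0149), against 2.65% of all genes, and 4 were under an unadjusted p of 0.05, against 21.8%. Ccnd3 passed as well without LAP B-ALL 4 (adjusted p = 0.0471), where 9.15% of all genes were called, Cdkn1b without Blnk tumour 1 (0.0495) or LAP preB-ALL 4 (0.0222), and Ccnd2 without Blnk tumour 5 (0.0265). The medians of the 6 pairwise differences over the 10 genes lay between -0.56 and 0.08, and over all genes between -0.03 and 0.0042.

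**Figure D3:**
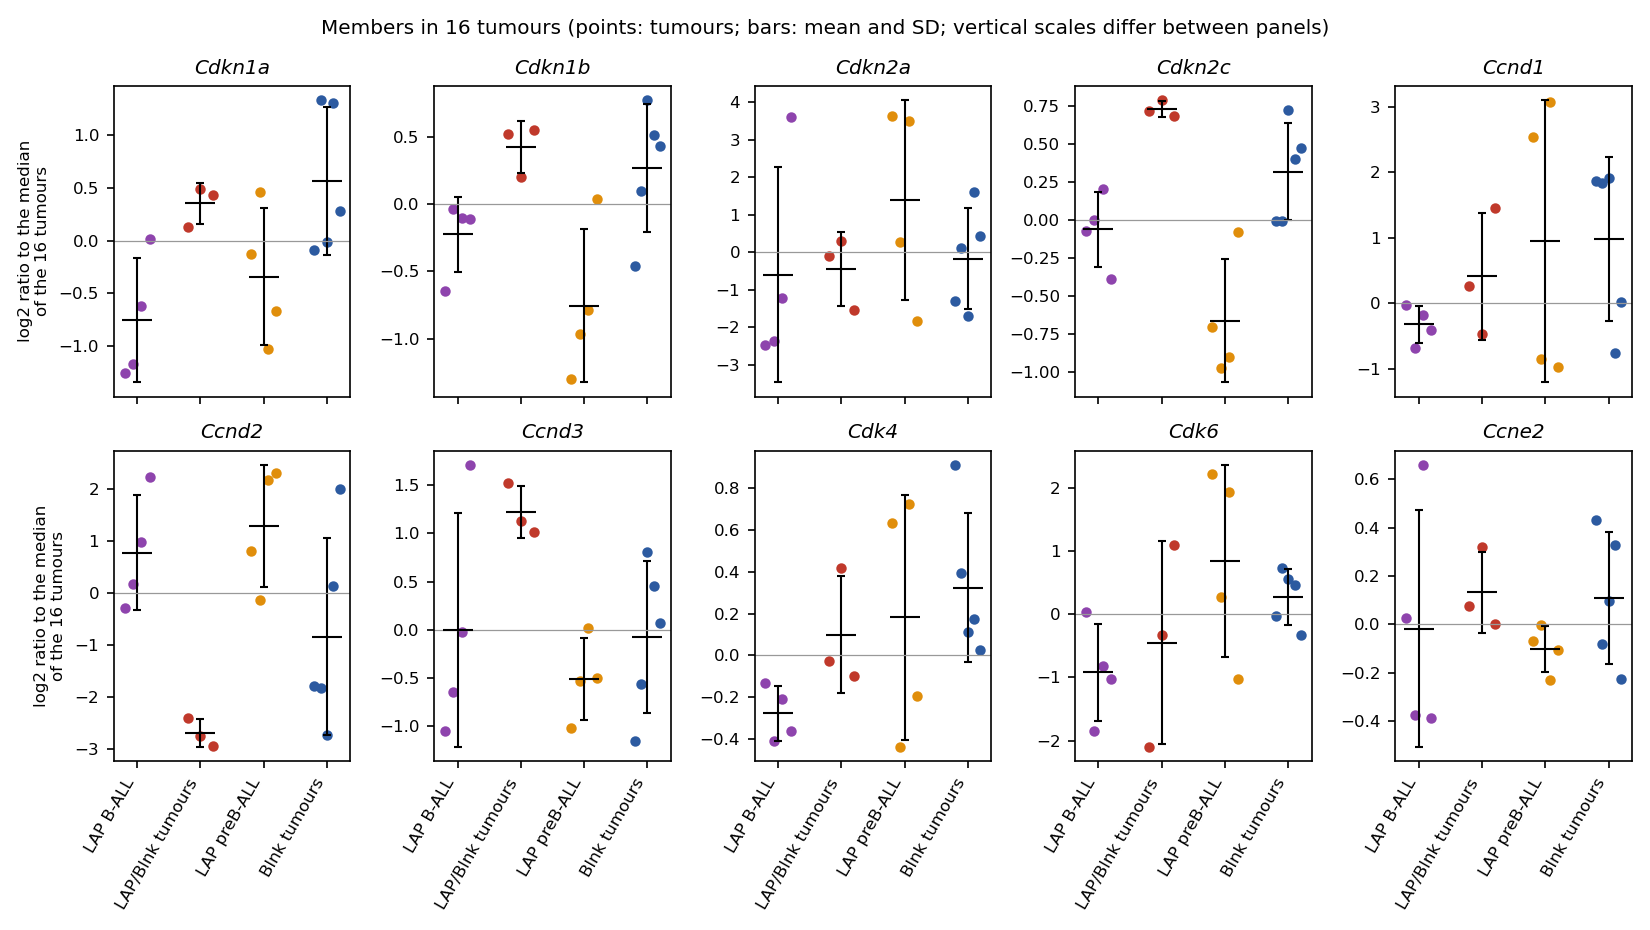
Log2 ratio of each gene to the median of the 16 tumours in LAP B-ALL, LAP/Blnk tumours, LAP preB-ALL and Blnk tumours, with points for tumours and bars for the mean and SD. LAP/Blnk tumours and LAP preB-ALL did not overlap in 5 of the 10 genes, against 17.3% of all genes. Of these limma called Cdkn2c (adjusted p = 0.00888) and, at the threshold, Ccnd2 (adjusted p = 0.0496). Vertical scales differ between panels.

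Cdkn2c had the clearest order of groups. It was at -0.07, 0.0025, 0.21 and -0.38 in LAP B-ALL 1 to 4, and LAP/Blnk tumours 1 to 3 stood at 0.72, 0.79 and 0.69. LAP preB-ALL 1 to 4 stood at -0.70, -0.97, -0.90 and -0.08, and Blnk tumours 1 to 5 at -0.01, -0.0025, 0.73, 0.40 and 0.47. LAP/Blnk tumours were uniformly high, and every LAP preB-ALL lay below every LAP/Blnk and every Blnk tumour. The group means ran from 0.73 in LAP/Blnk tumours over 0.32 in Blnk tumours and -0.06 in LAP B-ALL to -0.66 in LAP preB-ALL, and no neighbours in this order differed by the test.

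LAP/Blnk tumours exceeded LAP preB-ALL in Cdkn2c by 1.39 ± 0.22 (2.63-fold; adjusted p = 0.00888). Cdkn2c and Ccnd2 were the 2 of 10 genes called between these groups, against 2.37% of all genes. Under an unadjusted p of 0.05 were 4, against 18% of all genes, and 5 of 10 did not overlap, against 17.3%. Marker genes differed between these groups too. All 9 B-lineage genes (median 2.39) and all 8 stromal and endothelial genes (0.63) had a positive difference. All 6 erythroid genes (-1.21) and all 7 T-cell genes (-0.95) had a negative difference. Of these lists only 1 stromal gene was called, and their part in the 10 genes was not tested. The Cdkn2c call held when any single tumour of either group was left out (1.29 to 1.59, adjusted p of at most 0.0375), but with only these 2 groups in the fit the adjusted p was 0.0608. LAP preB-ALL were 0.98 below Blnk tumours without passing (adjusted p = 0.0735), and this difference passed without LAP preB-ALL 4 (-1.17, adjusted p = 0.0265), as did LAP B-ALL minus LAP preB-ALL (0.80, adjusted p = 0.0445). LAP B-ALL were 0.79 below LAP/Blnk tumours (adjusted p = 0.0648; 0.68 below without LAP B-ALL 4, adjusted p = 0.0719).

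Cdkn1b, the p27 gene, followed a like order on its probe set of the largest spread, but passed no test there. It was at -0.64, -0.04, -0.11 and -0.11 in LAP B-ALL 1 to 4, and LAP/Blnk tumours stood at 0.52, 0.20 and 0.55. The values were -1.30, -0.97, -0.79 and 0.04 in LAP preB-ALL 1 to 4, and -0.46, 0.09, 0.77, 0.52 and 0.43 in Blnk tumours 1 to 5. LAP/Blnk tumours lay above all LAP preB-ALL, of which number 4 was the highest. The difference was 1.18 ± 0.31 (adjusted p = 0.0654). It passed without LAP preB-ALL 4 (1.44, adjusted p = 0.0259) and on the second Cdkn1b probe set (1.15 ± 0.27, adjusted p = 0.0452). The order of groups differed on that second probe set. Its means were 0.35 in LAP/Blnk tumours, 0.20 in LAP B-ALL, -0.15 in Blnk tumours and -0.80 in LAP preB-ALL.

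Cdkn1a was lowest in LAP B-ALL, at -1.26, -1.17, -0.62 and 0.01 in LAP B-ALL 1 to 4, with LAP B-ALL 4 the highest of them. LAP/Blnk tumours stood at 0.13, 0.49 and 0.44, and LAP preB-ALL 1 to 4 at -0.13, 0.46, -1.03 and -0.67. In Blnk tumours 1 to 5 it was at -0.09, 1.33, -0.01, 1.30 and 0.28, high in numbers 2 and 4. LAP B-ALL minus Blnk tumours was -1.32 ± 0.38 (2.50-fold lower; adjusted p = 0.0847), with groups that overlapped through LAP B-ALL 4, and without that tumour it passed (-1.58, adjusted p = 0.0238). It was then the 1 of the 10 genes called, against 10.7% of all genes. In the same fit 5 of 9 B-lineage genes were lower and 5 of 6 erythroid genes higher in LAP B-ALL than in Blnk tumours, and their part was not tested. Of the 10 genes 0 were called between LAP B-ALL and Blnk tumours by limma with all tumours, against 1.45% of all genes, and 2 were under an unadjusted p of 0.05, against 21.2%. LAP B-ALL lay below every LAP/Blnk tumour (-1.11 ± 0.43; adjusted p = 0.152; -1.37 without LAP B-ALL 4, adjusted p = 0.0601). Between these groups 0 of 10 were called by limma, against 3.52% of all genes, and 3 were under an unadjusted p of 0.05, against 22%. Without LAP B-ALL 4, 1 was called, Ccnd3, against 11.6% of all genes. Their values did not overlap in 5 of 10 genes, against 22.2% of all genes. LAP preB-ALL were 0.90 below Blnk tumours (adjusted p = 0.33).

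Cdkn2a varied most among the tumours, and mostly within groups. It was at -2.47, -2.36, -1.21 and 3.61 in LAP B-ALL 1 to 4, and LAP/Blnk tumours 1 to 3 stood at -0.10, 0.31 and -1.55. LAP preB-ALL 1 to 4 stood at 3.64, 0.26, 3.51 and -1.84, and Blnk tumours 1 to 5 at -1.31, 0.10, -1.70, 1.59 and 0.44. The 3 tumours LAP preB-ALL 1 and 3 and LAP B-ALL 4 lay above 3 and all others below 2, so high values occurred in both LAP groups. Of the 4 tumours with the lowest B-lineage and highest erythroid markers, 3 had the lowest Cdkn2a values of all, and the fourth, LAP B-ALL 3, was at -1.21. What part other cells had in these values was not tested. No pair of groups differed in Cdkn2a. The largest difference, LAP B-ALL minus LAP preB-ALL, was -2.0 with a 95% interval from -5.05 to 1.05 (adjusted p = 0.607), and it was -3.41 without LAP B-ALL 4 (adjusted p = 0.263).

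Ccnd2 was the D cyclin with the widest spread. It was at -0.29, 0.18, 0.99 and 2.24 in LAP B-ALL 1 to 4, and LAP/Blnk tumours 1 to 3 stood at -2.41, -2.75 and -2.94. The values were 0.81, -0.14, 2.18 and 2.31 in LAP preB-ALL 1 to 4, and -1.79, -1.83, -2.73, 0.14 and 2.00 in Blnk tumours 1 to 5. All LAP/Blnk tumours were low, Blnk tumours 1 to 3 were low as well, and every LAP B-ALL and LAP preB-ALL was at or above -0.29.

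LAP/Blnk tumours lay below LAP preB-ALL in Ccnd2 by 3.99 on the log2 scale (SE 0.98; 15.9-fold lower; adjusted p = 0.0496). This call was at the threshold, and the part of the marker differences given above for these groups was not tested. The adjusted p exceeded 0.05 in 6 of the 7 fits that left out 1 tumour of these groups (up to 0.169, without LAP/Blnk tumour 3), all but that without LAP preB-ALL 2 (0.0463), and all 6 Ccnd2 probe sets were lower, by 2.45 to 4.15, of which 2 passed (-3.79, adjusted p = 0.0343; -4.15, adjusted p = 0.0239). LAP B-ALL exceeded LAP/Blnk tumours by 3.48 ± 0.98 without overlap (adjusted p = 0.0661; 2.99 without LAP B-ALL 4, adjusted p = 0.0742). The order of group means, 1.29 in LAP preB-ALL, 0.78 in LAP B-ALL, -0.84 in Blnk tumours and -2.70 in LAP/Blnk tumours, held no neighbours that differed by the test. LAP/Blnk minus Blnk tumours was -1.86 (95% interval -3.87 to 0.15; adjusted p = 0.917).

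Ccnd3 ran against Ccnd2 in the tumours of transgenic knockout mice. Its values were -1.05, -0.65, -0.02 and 1.71 in LAP B-ALL 1 to 4, and LAP/Blnk tumours stood at 1.53, 1.13 and 1.02. LAP preB-ALL 1 to 4 stood at -1.02, -0.53, 0.02 and -0.50, and Blnk tumours 1 to 5 at -1.15, -0.57, 0.81, 0.46 and 0.07. On the Ccnd3 probe set of the largest spread LAP/Blnk tumours were above every LAP preB-ALL and every Blnk tumour. LAP B-ALL 4 was the only tumour above the LAP/Blnk tumours. LAP/Blnk minus Blnk tumours was 1.30 ± 0.55 (2.46-fold; adjusted p = 0.812) and LAP/Blnk minus LAP preB-ALL 1.73 ± 0.57 (adjusted p = 0.134), and neither passed. LAP B-ALL minus LAP/Blnk tumours was -1.23 (adjusted p = 0.228) and passed without LAP B-ALL 4 (-1.80, adjusted p = 0.0225). In that fit 5 of 9 B-lineage genes were lower and 5 of 6 erythroid genes higher in LAP B-ALL than in LAP/Blnk tumours, and their part was not tested. The second Ccnd3 probe set gave 0.79 ± 0.58 for LAP/Blnk minus LAP preB-ALL. On it LAP/Blnk tumours (-0.04 to 0.88) overlapped with LAP preB-ALL (-0.73 to 0.04) and with Blnk tumours (-0.36 to 1.56). The means of LAP/Blnk and Blnk tumours there were 0.49 and 0.52.

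Ccnd1, a D cyclin that normal lymphocytes hardly use, split the groups within themselves. It was at -0.02, -0.68, -0.18 and -0.42 in LAP B-ALL 1 to 4, and LAP/Blnk tumours 1 to 3 stood at 0.26, -0.47 and 1.45. The values were 2.54, -0.85, 3.07 and -0.97 in LAP preB-ALL 1 to 4, and 1.87, 1.83, 1.91, -0.76 and 0.02 in Blnk tumours 1 to 5. The 6 tumours LAP/Blnk 3, LAP preB-ALL 1 and 3 and Blnk 1 to 3 lay above 1 and no LAP B-ALL did. No pair of groups differed, with LAP B-ALL minus Blnk tumours at -1.30 (95% interval -3.15 to 0.55; adjusted p = 0.412) and at -1.27 without LAP B-ALL 4 (adjusted p = 0.447).

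The kinase Cdk6 was at 0.03, -1.85, -0.82 and -1.03 in LAP B-ALL 1 to 4, and LAP/Blnk tumours 1 to 3 stood at -2.11, -0.33 and 1.10. LAP preB-ALL 1 to 4 stood at 2.22, 0.28, 1.93 and -1.03, and Blnk tumours 1 to 5 at -0.03, 0.73, 0.56, 0.46 and -0.33. LAP preB-ALL 1 and 3, the tumours highest in Ccnd1, were highest here too. LAP B-ALL minus LAP preB-ALL was -1.77 ± 0.73 (adjusted p = 0.42; -1.73 without LAP B-ALL 4, adjusted p = 0.386). Between these groups 0 of the 10 genes were called by limma, as were 0% of all genes (0.0292% without LAP B-ALL 4, and again 0 of the 10), and 2 were under an unadjusted p of 0.05, against 11%. In 0 of 10 genes did the groups not overlap, against 5.21%.

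Cdk4 spread less, at -0.13, -0.41, -0.21 and -0.36 in LAP B-ALL 1 to 4, and LAP/Blnk tumours stood at -0.03, 0.42 and -0.10. The values were 0.63, -0.44, 0.72 and -0.19 in LAP preB-ALL 1 to 4, and 0.91, 0.39, 0.11, 0.17 and 0.03 in Blnk tumours 1 to 5. All LAP B-ALL lay below all Blnk tumours (-0.60 ± 0.24; adjusted p = 0.175; -0.57 without LAP B-ALL 4, adjusted p = 0.201), the only gene of the 10 without overlap in that comparison, where 8.52% of all genes had none. Ccne2 lay between -0.39 and 0.66 in all tumours, and its largest group difference was 0.23 (LAP/Blnk minus LAP preB-ALL, 95% interval -0.25 to 0.71; adjusted p = 0.615).

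In the tumours the wider lists gave few calls. Of the 28 other G1 regulators 0 were called between LAP/Blnk tumours and LAP preB-ALL and 2 between LAP B-ALL and Blnk tumours, both lower, Skp2 (-1.04) and its cofactor gene Cks1b (-0.78). Cks1b was also lower in LAP B-ALL than in LAP/Blnk tumours (-0.67). With all 16 tumours in the fit none of the 23 replication genes passed in any pair of tumour groups. Of the mitosis genes, the kinesin gene Kif11 and Ttk were higher in LAP/Blnk tumours than in LAP preB-ALL (1.57 and 0.73), and Bub1b, Cdc20 and Kif11 were lower in LAP B-ALL than in Blnk tumours (-1.0, -0.64 and -0.95). The most mitosis genes were called between LAP B-ALL and LAP/Blnk tumours, 4 of 19 and all lower in LAP B-ALL, led by Kif11 (-1.82), Bub1b (-1.03) and Cdc20 (-0.77). Of the p53 targets, the kinase gene Plk3 was lower in LAP/Blnk tumours than in LAP preB-ALL (-0.63). Among regulators of D cyclins and inhibitors, Id3, an antagonist of E proteins, was higher in LAP/Blnk tumours than in LAP preB-ALL (2.45) and lower in LAP preB-ALL than in Blnk tumours (-2.77), and the kinase gene Gsk3b was higher in LAP/Blnk tumours than in LAP preB-ALL (0.79) and lower in LAP B-ALL than in Blnk tumours (-0.70) or LAP/Blnk tumours (-0.78). Of the marker lists of other cells, Klrb1c of NK cells was higher in LAP/Blnk tumours than in LAP preB-ALL (3.20) and lower in LAP B-ALL than in LAP/Blnk tumours (-3.30), where the erythroid genes Hba-a1 and Alas2 were higher in LAP B-ALL (5.77 and 6.0), and the collagen gene Col1a2 was higher in LAP/Blnk tumours than in LAP preB-ALL (0.33). Over the 6 NK-cell genes the median was -0.43 for LAP/Blnk tumours minus LAP preB-ALL and -0.09 for LAP B-ALL minus LAP/Blnk tumours. In each of these comparisons 2 NK-cell genes had a positive and 4 a negative difference. Across the 4 groups the F test called Cks1b, 4 mitosis genes led by Kif11, Bub1b and Cdc20, and Plk3, Id3, Gsk3b, Cebpb and Klrb1c. Without LAP B-ALL 4, a fit of the lists chosen after seeing the data, every list gene named here for a LAP B-ALL comparison or the F test passed again, with the same direction in the pairwise comparisons. Of the 28 G1 regulators 7 were then called between LAP B-ALL and Blnk tumours, 1 higher and 6 lower, against 10.7% of all genes. Between LAP B-ALL and LAP/Blnk tumours 4 were called, 1 higher and 3 lower, against 11.6% of all genes. Of the 23 replication genes 3 and 0 were called in these comparisons. The part of the marker genes in the values of the 10 genes was not tested.

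Both LAP/Blnk against Blnk tumours and LAP against BKO408 cells set samples with LAP against samples without it among those labelled as Blnk knockouts. In the tumours 0 of the 10 genes were called by limma (0.0175% of all genes). Ccnd3 was the 1 gene under an unadjusted p of 0.05 (5.78% of all genes) and the only one without overlap (5.36%). On the second Ccnd3 probe set the groups overlapped (-0.04 to 0.88 in LAP/Blnk tumours, -0.36 to 1.56 in Blnk tumours). Between LAP preB-ALL and Blnk tumours 0 were called as well (0.0819% of all genes), with 4 under an unadjusted p of 0.05 (13.2%) and 1, Cdkn2c, without overlap (4.59%). Cdkn1a, which rose by 1.44 in the cells, differed by -0.21 in the tumours (95% interval -1.10 to 0.68). The difference of both LAP effects was -1.65 ± 0.40 and did not pass (adjusted p = 0.068). It passed without Blnk tumour 1 (-1.81, adjusted p = 0.0244), 3 (-1.79, adjusted p = 0.0331) or 5 (-1.72, adjusted p = 0.0371).

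Cdkn2c was the 1 gene of the 10 whose LAP effect differed between tumours and cells by the test, against 1.05% of all genes. It was 0.41 in the tumours (95% interval -0.04 to 0.87; adjusted p = 0.929) and -0.42 in the cells, a difference of 0.84 ± 0.18 (adjusted p = 0.045). That call was lost in 11 of the 16 fits without 1 sample, namely without any 1 of the 8 cell-line arrays or the 3 LAP/Blnk tumours (0.81 to 0.86, adjusted p of 0.0642 to 0.108). The fit of both effects shared 1 estimate of spread between cells and tumours. Median SDs over all genes were 0.05 and 0.06 in the cell groups, but 0.16 and 0.21 in these tumour groups. The SE for Cdkn2c (0.18) was below that of its tumour effect alone (0.21). The adjusted p-values of this fit can therefore be too small. Ccnd3 had a difference of both effects of 1.49 ± 0.44 (adjusted p = 0.135), which passed without Blnk tumour 3 (1.71, adjusted p = 0.0353). On the second Ccnd3 probe set the means were 0.17 in LAP cells and -0.27 in BKO408 cells. They were 0.49 in LAP/Blnk tumours and 0.52 in Blnk tumours, so the difference of both effects had the opposite sign there. Of the list genes the same test called Cebpb (3.49), Gfi1 (-2.52), Irf4 (1.67) and Lyz2 (-1.86). The tumour intervals were wide, as that of Cdkn2a, from -3.42 to 2.88.

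**Figure D4:**
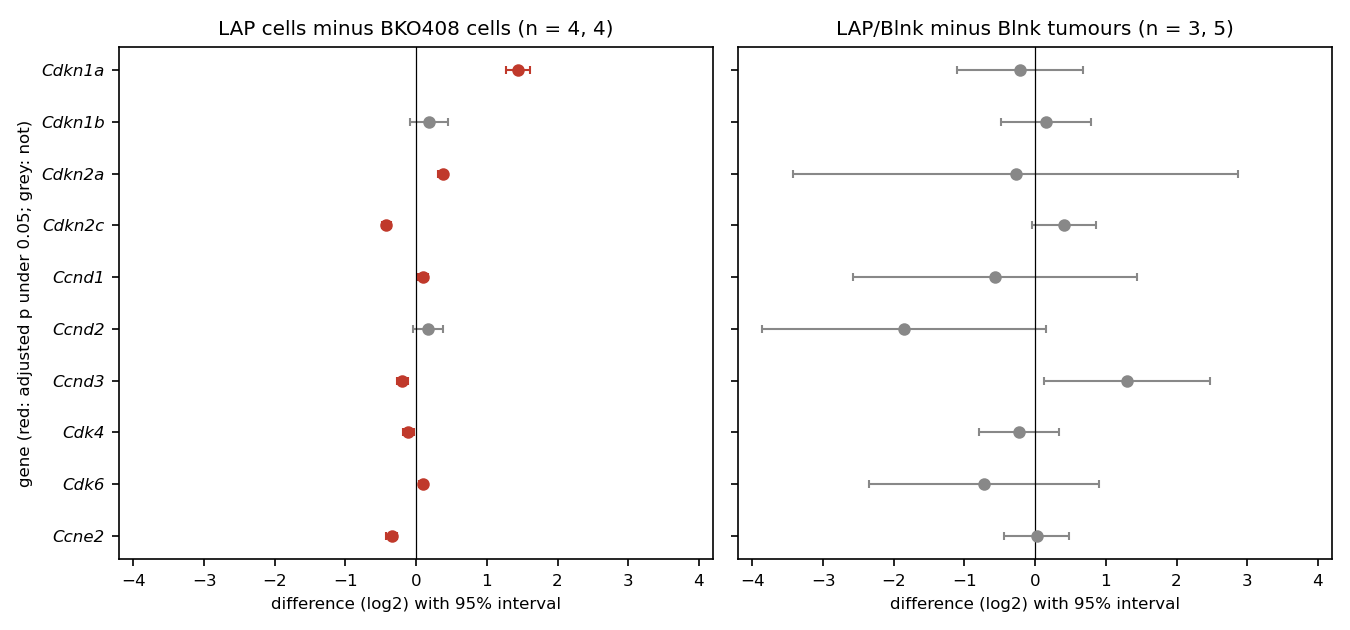
Difference and 95% interval of each gene between LAP and BKO408 cells (left, 4 against 4 arrays) and between LAP/Blnk and Blnk tumours (right, 3 against 5 tumours), on 1 scale. In the cells 8 genes pass (red), and in the tumours 0 do, where the interval of Cdkn1a runs from -1.10 to 0.68.

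Of the 45 pairs among the 10 genes, 3 correlated across the 16 tumours after adjustment over all pairs. Cdkn1b and Cdkn2c had r = 0.883 (permutation p = 3e-05, adjusted 0.00135) and Spearman's rho = 0.879 (permutation p = 3e-05), and r was 0.835 without the 2 tumours farthest from the median of Cdkn1b. Ccnd1 correlated with Cdk4 (r = 0.743, permutation p = 0.0011, adjusted 0.0247; rho = 0.679, permutation p = 0.00432) and with Cdk6 (r = 0.719, permutation p = 0.00171, adjusted 0.0256; rho = 0.6, permutation p = 0.0158). Without the 2 tumours farthest in Ccnd1 these were r = 0.605 and r = 0.503. With the mean of each group removed r was 0.709, 0.687 and 0.671, and no pair passed (adjusted permutation p = 0.487, 0.548 and 0.487). By rank only Cdkn1b with Cdkn2c passed. Without LAP B-ALL 4, a set of 15 tumours chosen after seeing the data, r was 0.90, 0.732 and 0.707 (adjusted permutation p = 0.00045, 0.0354 and 0.0354). Ccnd3 then correlated with Cdkn1b (r = 0.726, adjusted permutation p = 0.0354) and Cdkn2c (r = 0.70, adjusted permutation p = 0.0364) as well, which made 5 pairs. Cdkn1b lies on chromosome 6 and Cdkn2c on chromosome 4. Both genes of a pair share the array and the cell mixture of each tumour, and the part of these was not tested.

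**Figure D5:**
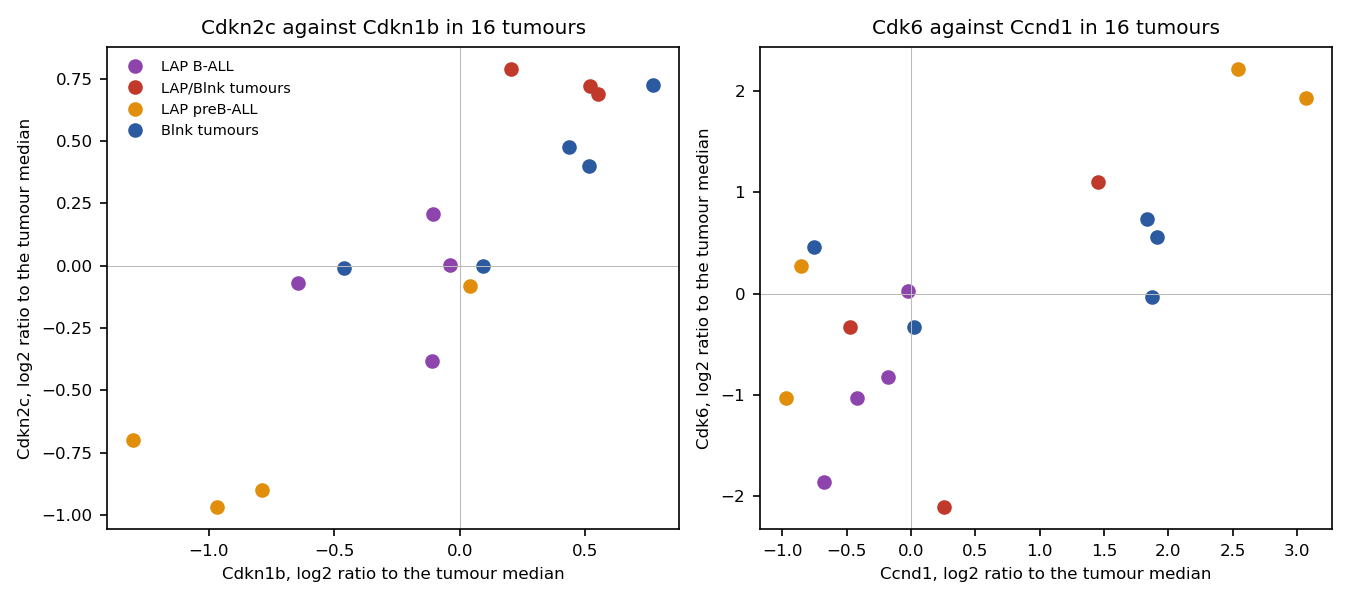
Cdkn2c against Cdkn1b (left) and Cdk6 against Ccnd1 (right) in the 16 tumours, as log2 ratios to the tumour median. Cdkn1b and Cdkn2c run together from LAP preB-ALL to LAP/Blnk tumours (r = 0.883), and LAP preB-ALL 1 and 3 are at the top right of the Ccnd1 plot.

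For the 4 genes of the widest spread, the named genes with the most similar pattern over the 16 tumours were sought among all genes. For Cdkn2a these were Rhot1 (r = 0.900), Xpo5 (0.898) and Bend4 (0.879), and for Ccnd2 Zdhhc8 (0.837), Cmip (0.835) and Dusp16 (0.827). For Ccnd1 they were Mrps6 (0.899), Nudt16l1 (0.872) and Qtrt2 (0.847), and for Cdk6 Pus7 (0.834), Mrps6 (0.821) and Fam133b (0.815). Mrps6, Nudt16l1 and Qtrt2 all lie on chromosome 16, while Ccnd1 lies on chromosome 7. Pus7 and Fam133b lie on chromosome 5, as does Cdk6, and Dusp16 lies on chromosome 6, as does Ccnd2. These are the highest of many correlations and are descriptions only.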

How the data were processed

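Total RNA was labelled for an Affymetrix array, per the labels' protocols, and MAS5 is the tool named in the submitters' processing notes. The deposited values are taken as log2 ratios. No source used here states their base or the scaling before centring. Every one of the 45141 probe sets was centred on a median of 0, once within the 8 cell-line arrays and once within the 16 tumours (within 1e-05). The values have no level, so filters and pseudocounts were not used, and the number of arrays limits precision.

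A platform annotation of 2016 gave 1 symbol to 28898 probe sets, several to 551 and none to 15692, and 28689 matched RefSeq (GRCm38.p6). The probe set with the largest SD around the cell-line and tumour means stood for each of 17097 genes, of which 7180 had more than 1.

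The tests were those of limma 3.58.1, run in R 4.3.3 (moderated two-sided tests, SE from the same fit, Benjamini-Hochberg adjustment over all genes, threshold 0.05). The 8 cell-line arrays formed 1 fit, the 16 tumours another (12 residual degrees of freedom), and LAP and BKO408 cells with LAP/Blnk and Blnk tumours a separate fit that gave the difference between the LAP effects. The fit was checked on simulated data. Correlations used 100000 permutations (scipy 1.17.1). No identical arrays were found. The members and the 12 lists (182 genes, 171 measured) were chosen with earlier results of these data known. The text names every member and some of its other probe sets, and every called G1 regulator. It also names up to 3 called genes of each other list with the largest difference, and the 3 genes most like each of the 4 most variable members. Alternatives were the mean of probe sets, each probe set alone, array medians set to 0, quantile normalisation, a variance trend, robust moderation, array weights, genes of larger spread, a replicate block, other sets of arrays in the fit, and leaving out each sample.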

Additional observations from a re-analysis of the deposited data

Results flagged for a closer look

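In 50 groups of 4 or 5 samples of a gene, 2 held a value whose gap to its nearest neighbour took up nearly the whole range of the group, and chance gives this in about 1 in 20 groups. Cdkn1b in LAP B-ALL 1 was at -0.64, with the nearest other LAP B-ALL at -0.11. Ccnd2 in BKO408 cells 1 was at -0.29, with the nearest other BKO408 array at -0.02; without it the Ccnd2 difference between LAP and BKO408 cells did not pass either.

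The effect of LAP on Cdkn2c differed between tumours and cells by the test of the difference itself, at 0.84 (adjusted p = 0.045), with opposite signs in LAP/Blnk against Blnk tumours (0.41) and LAP against BKO408 cells (-0.42). The call was lost without any 1 cell-line array or LAP/Blnk tumour. Its fit shared 1 estimate of spread between cells and tumours, which differ in spread, so the adjusted p can be too small.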

How the results depend on the processing

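Of 940 gene differences under other settings 874 kept their sign and their side of the threshold, 31 passed newly, 22 no longer passed and 13 reversed; with single samples left out, 793 of 880 kept both. Of the 10 genes, the number called between LAP and BKO408 cells was 0 with all 24 arrays in 1 fit, and 5 to 7 without single arrays. That 1 fit called 21 of all 17097 genes. Between LAP/Blnk tumours and LAP preB-ALL it was 1 with the mean of probe sets, each probe set alone, quantile normalisation or robust moderation, 0 with only these groups, 4 with all 24 arrays and 1 to 2 without single tumours. Of all 17097 genes 295 were called there with the mean of probe sets, 480 with quantile normalisation and 355 with robust moderation. With only these groups 50 of all genes were called, and with all 24 arrays 1765. Each probe set alone gave 649 calls among 28898 probe sets. Between LAP preB-ALL and Blnk tumours the number of the 10 genes was 2 with all arrays (0 to 1 without single tumours). All arrays called 687 of all genes in that comparison. Between LAP B-ALL and LAP preB-ALL it was 0 to 1 without single tumours. Between LAP B-ALL and Blnk tumours it was 2 with array weights and 1 with all arrays (0 to 1 without single tumours). Weights and all arrays called 3619 and 2560 of all 17097 genes there. Between LAP B-ALL and LAP/Blnk tumours it was 1 with quantile normalisation or genes of larger spread and 4 with weights. It was 2 with only these groups and 3 with all arrays (0 to 1 without single tumours). Of all 17097 genes 811 were called with quantile normalisation, 4063 with weights, 814 with only these groups and 2738 with all arrays. Of the 8549 genes of larger spread 748 were called. Across the 4 groups it was 5 with weights (1 to 2 without single tumours), where weights called 3685 of all 17097 genes. For the difference of both LAP effects it was 0 with a variance trend and 3 with weights (0 to 3 without single samples). The trend called 172 of all 17097 genes there, and the settings and left-out samples together gave between 75 and 1122. Of the gene pairs 0 passed with group means removed and 5 without LAP B-ALL 4. The labels do not say whether replicate numbers pair the samples, and the main fits did not use them. With them as a replicate block 1 gene was called between LAP B-ALL and Blnk tumours and 1 between LAP B-ALL and LAP/Blnk tumours. The block called 199 and 351 of all 17097 genes there. In the difference of both LAP effects 2 of the 10 genes were called with the block, where the settings gave between 75 and 1122 of all genes. Across the 4 groups Ccnd2 passed with the block (adjusted p = 0.0251) where Cdkn2c did not (0.0568).

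Signs reversed as follows, and the cause was not tested. With the mean of probe sets, Ccnd3 was 0.12 in the cells, Ccnd1 0.0022 in LAP preB-ALL minus Blnk tumours, Ccnd3 -0.44 in LAP B-ALL minus Blnk tumours and Cdkn1b 0.26 in the difference of both LAP effects. With weights, Ccnd1 and Cdk4 were 0.54 and 0.0055 in LAP preB-ALL minus Blnk tumours, and Ccnd3 -0.43 in LAP B-ALL minus Blnk tumours. With quantile normalisation, Cdkn2a was 0.28 in LAP B-ALL minus LAP/Blnk tumours and Cdkn1b 0.080 in the difference of both effects. With the block, Cdkn2a and Ccne2 were 0.20 and -0.087 in LAP/Blnk minus Blnk tumours, and Cdkn1b and Cdkn2a 0.11 and 0.15 in the difference of both effects. Without single samples, LAP/Blnk minus Blnk tumours ranged from -0.028 to 0.28 for Cdkn1b, -0.65 to 0.28 for Cdkn2a, -1.50 to 0.10 for Cdk6 and -0.070 to 0.10 for Ccne2. LAP/Blnk minus LAP preB-ALL ranged from -1.17 to 0.17 for Ccnd1 and -0.29 to 0.10 for Cdk4, and LAP preB-ALL minus Blnk tumours from -0.74 to 0.61 and -0.32 to 0.065 for the same genes. LAP B-ALL minus LAP preB-ALL ranged from -0.066 to 0.85 for Ccnd3 and -0.14 to 0.21 for Ccne2, minus Blnk tumours from -1.84 to 0.19 for Cdkn2a and -0.50 to 0.42 for Ccnd3, and minus LAP/Blnk tumours from -1.57 to 0.46 for Cdkn2a and -1.30 to 0.30 for Cdk6. The difference of both effects ranged from -0.21 to 0.12 for Cdkn1b, -0.27 to 0.035 for Cdk4 and -1.60 to 0.0017 for Cdk6.

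The number of all genes called moved far more, from 3820 to between 21 and 5857 in the cells, 406 to between 50 and 1765 for LAP/Blnk minus LAP preB-ALL, 3 to between 0 and 119 for LAP/Blnk minus Blnk tumours, 14 to between 0 and 687 for LAP preB-ALL minus Blnk tumours, 0 to between 0 and 291 for LAP B-ALL minus LAP preB-ALL, 248 to between 47 and 3619 for LAP B-ALL minus Blnk tumours, 602 to between 246 and 4063 for LAP B-ALL minus LAP/Blnk tumours, 453 to between 200 and 3685 across the 4 groups and 180 to between 75 and 1122 for the difference of both LAP effects. Leaving out LAP B-ALL 4 alone gave 1835 for LAP B-ALL minus Blnk tumours, 1980 for LAP B-ALL minus LAP/Blnk tumours and 1565 across the groups.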

Other observations

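The values below were chosen after they were seen. The neighbours of Cdkn2a on chromosome 4 did not follow it in every tumour. Mtap was at -0.87, -0.75, -1.44 and -0.26 in LAP B-ALL 1 to 4, between -0.11 and 0.43 in LAP/Blnk tumours, at 0.98, -2.40, 0.75 and -1.09 in LAP preB-ALL 1 to 4 and between -0.53 and 0.62 in Blnk tumours. It was thus lowest in LAP preB-ALL 2, where Cdkn2a was at 0.26. Cdkn2b, which encodes the inhibitor p15, was at 2.66 in LAP B-ALL 2, the highest of all tumours, where Cdkn2a was at -2.36.

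Some chromosomes that hold these genes were shifted in single tumours, as the median of their genes minus that of the other autosomes on the same array. Chromosome 6, with Ccnd2 and Cdkn1b, was at 0.07 in LAP preB-ALL 3 and in LAP preB-ALL 4 and between -0.03 and 0.03 in the other 14. LAP preB-ALL 3 and 4 had the highest Ccnd2 values (2.18 and 2.31) beside LAP B-ALL 4 (2.24), which was at -0.02 on chromosome 6. Cdkn1b was at 0.04 in LAP preB-ALL 4 and below the tumour median in LAP preB-ALL 3. Chromosome 5, with Cdk6, was at 0.07 in LAP preB-ALL 1, where Cdk6 was highest (2.22), and between -0.02 and 0.02 in the other 15. LAP preB-ALL 3, the next highest in Cdk6, was at 0.02. Chromosome 16, which holds the 3 genes most like Ccnd1, was at 0.08 to 0.09 in LAP/Blnk tumour 3 and Blnk tumours 1 to 3 and between -0.04 and -0.0045 in the other 12. Those 4 tumours had Ccnd1 between 1.45 and 1.91, while LAP preB-ALL 1 and 3, at 2.54 and 3.07, were at -0.02 and -0.01 on chromosome 16. The part of such shifts in the values of the 10 genes was not tested.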
